A study of Canis lupus familiaris with 15 samples.

Results

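Gene expression in MDCK cells given hepatocyte growth factor (HGF) together with the compound labelled PD was set against that in cells left in medium, to describe how much of the HGF response was present with the compound and what was added to it. MDCK, a long-established canine kidney cell line, grows as a polarised epithelial sheet on porous supports. Before treatment every culture spent 7 days on Transwell filters, in MEM with 5% FBS. The 4 Control arrays came from cells exposed to medium only. The 4 HGF + PD arrays came from cells given HGF at 100 ng/ml for 24 h with a compound spelled PD09859 at 50 uM. These 8 of the 15 arrays of the series were chosen by their labels, 4 against 4. The other 7 arrays, which served for values set alongside and for the estimate of the spread, were 4 of cells given HGF at the same dose for 24 h (HGF) and 3 where HGF came with 10 uM of the compound spelled UO126 (HGF + UO). Since the series title refers to MAPK inhibitors, these were taken to be PD98059 and U0126, which block MEK. Cultures with PD but no HGF were not analysed here, and the sources used here name no vehicle control, so the parts of HGF and of the compound in a difference from Control cannot be told apart. The arrays are labelled as biological replicates, but separate cultures are not mentioned, and the spread behind the p-values may be technical.

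HGF binds the receptor tyrosine kinase MET on epithelial cells, and the signal runs through the adaptors GRB2, SHC1 and GAB1 to the RAS, RAF, MEK and ERK cascade, to PI3K and AKT, and to STAT3. ERK switches on immediate early transcription factors such as EGR1 and FOS within minutes and induces its own inhibitors, the DUSP phosphatases and Sprouty proteins. On MDCK layers HGF is known to loosen cell contacts, scatter colonies and drive tubule growth, and compounds that block MEK act between RAF and ERK.

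The values are log2 of the deposited probe set intensities, which ranged from 1.97 to 104385 on the linear scale. Of 42924 probe sets that are not array controls, 24904 (58.0%) reached a log2 of 4 on at least 3 of the 15 arrays and were tested, and the probe set with the highest mean stood for each of 10287 named genes. The median intensity of an array was 41.4 ± 0.362 (SD, n = 4) in Control and 40.7 ± 0.302 (SD, n = 4) in HGF + PD, and the groups did not overlap (two-sided exact permutation p = 0.0286, the smallest that 4 against 4 arrays can give, 0.0714 adjusted over 5 array measures). The signal of the 3' beta-actin probe set stood 2.24 above that of the 5' probe set on the log2 scale in Control, 2.13 in HGF + PD (exact permutation p = 0.0857) and 1.48 in HGF. The labelled cell type was checked against markers. The summed linear intensity of 6 epithelial markers was 110350 to 121040 in Control and 78637 to 100160 in HGF + PD. Past the threshold given in the next paragraph, 5 of the 6 (CDH1, CLDN4, CLDN7, KRT8 and KRT18) were lower in HGF + PD. That is 83.3%, against 13.5% of all genes. The 3 fibroblast, 3 endothelial and 4 leukocyte markers measured had sums of 193.26 to 227.62, 403.08 to 475 and 200.99 to 233.04 over both groups, and 0 of these 10 passed the threshold (1 fibroblast marker was lower without Control replicate 1 and 1 leukocyte marker without Control replicate 3).

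HGF + PD cells differed from Control at 8579 probe sets, of which 5028 were higher and 3551 lower at an adjusted p under 0.05 (limma, Benjamini-Hochberg over the probe sets tested). A log2 difference of at least 1 in size was reached by 820 of them, 552 higher and 268 lower. By gene, 2245 were higher and 1390 lower, which is 21.8% and 13.5% of the genes tested, with a median difference over all genes of -0.01. HGF against Control, which uses the same Control arrays, gave 13839 probe sets and 3467 of size 1 or more, with 28% of genes higher and 27.7% lower. HGF + PD against HGF gave 13798 and 3385, with 29.9% of genes higher and 25.8% lower. These percentages are the background for the counts of gene groups below. Differences are given as log2 HGF + PD minus Control ± the standard error of the fit unless another comparison is named. The largest rises and falls were picked among genes past the threshold whose Control and HGF + PD arrays did not overlap. So were the leading genes kept from, opposite to or added to the HGF change. For all of these, a lack of overlap with Control restates how they were picked and is no further result.

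The largest rises brought together secreted factors, a claudin, a lipid carrier and cell cycle genes. FGFBP1, a carrier that releases fibroblast growth factors from the matrix, read 3.61, 3.56, 3.61 and 3.55 on the 4 Control arrays and 8.86, 8.28, 8.29 and 9.0 on the 4 HGF + PD arrays. All Control values lay below the filter level of 4 and all HGF + PD values far above it. The fitted difference was 5.02 ± 0.29, beside 6.29 ± 0.29 with HGF alone, and since Control lay near the floor its size depends on the background that GCRMA subtracted. The FGFBP1 probe set was kept only because it was high in groups given HGF, so no test is read from it. DKK3, a secreted glycoprotein of the Dickkopf family, read 4.74, 4.11, 4.13 and 4.13 in Control, 5.66, 6.06, 5.69 and 6.40 in HGF, and 8.48, 8.28, 8.83 and 8.44 in HGF + PD. The 3 groups did not overlap. The rise over Control was 4.23 ± 0.19 (18.8-fold, adjusted p = 2.07e-09), and HGF + PD also stood 2.56 above HGF (adjusted p = 2.83e-08). A dimmer DKK3 probe set differed by 0.17 (adjusted p = 0.18).

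CLDN10, a claudin that forms ion channels between cells, lay at 3.17 to 3.18 on the Control arrays and at 3.08 to 3.18 on the HGF arrays, below the filter, and read 7.29, 6.85, 7.52 and 7.70 with HGF + PD. It was thus measurable on all 4 HGF + PD arrays and on none of the Control or HGF arrays. The fitted difference of 4.16 ± 0.22 is set against Control values near the floor. The probe set was kept only because it was high in the groups given a compound, so no test is read from it. Dimmer CLDN10 probe sets gave -0.08 and -0.02 and did not pass. FABP1, the liver-type fatty acid-binding protein of hepatocytes and proximal tubule, read 4.53, 4.38, 4.14 and 4.25 in Control and 7.06, 8.24, 8.98 and 6.81 in HGF + PD. The HGF + PD arrays spread widely, yet none came near the Control arrays (3.45 ± 0.42, adjusted p = 2.05e-05). FILIP1L read 5.31, 3.97, 4.95 and 4.40 in Control and 8.10, 7.83, 7.44 and 8.24 in HGF + PD (3.25 ± 0.30), while HGF differed from Control by -0.28 ± 0.30. Other FILIP1L probe sets gave 0.05, 0.54 and 0.96, of which the last passed. The remaining 5 of the 10 largest rises were the cell cycle genes ORC1, TTK, DEPDC1, CEP55 and FOXM1, described with their groups below.

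**Figure D1:**
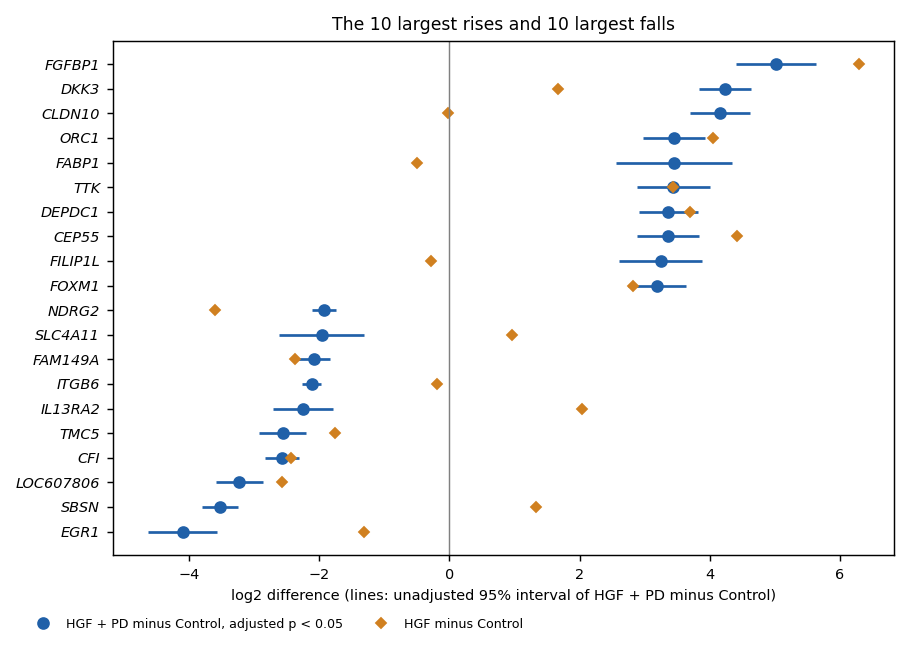
The 10 largest rises and 10 largest falls of HGF + PD against Control. Circles and lines give the log2 difference and its unadjusted 95% interval, and diamonds the log2 difference of HGF against the same Control arrays. FGFBP1 stands at 5.02 and EGR1 at -4.10. No test is read from FGFBP1, CLDN10, DEPDC1 or SBSN, each kept by the filter only through the groups where it was high. CLDN10, FABP1 and FILIP1L have HGF differences of -0.03, -0.50 and -0.28, beside rises of 4.16, 3.45 and 3.25 with HGF + PD, and SBSN, IL13RA2 and SLC4A11 lie on opposite sides of 0.

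The deepest fall was that of EGR1, the zinc finger factor at the head of the ERK response. EGR1 read 11.50, 11.66, 11.83 and 11.18 in Control, 9.93, 10.13, 10.55 and 10.32 in HGF, and 7.02, 8.15, 7.64 and 6.96 in HGF + PD. No array of one group reached the range of another. The difference from Control was -4.10 ± 0.24 (17.2-fold, adjusted p = 2.31e-08), and a second probe set gave -3.68. SBSN, the secreted epidermal protein suprabasin, read 7.43, 6.92, 6.95 and 7.28 in Control and 3.53, 3.38, 3.80 and 3.78 in HGF + PD, below the filter. The fitted difference was -3.52 ± 0.13, in contrast to a rise of 1.32 ± 0.13 with HGF alone. The SBSN probe set was kept only because it was high in Control and HGF, so no test of its fall is read. CFI, the complement-degrading protease factor I, read 12.83, 13.07, 12.99 and 13.08 in Control and 10.48, 10.30, 10.25 and 10.65 in HGF + PD. All HGF + PD arrays lay far below the Control arrays for CFI, and its 3 probe sets gave -2.57, -2.61 and -2.62 beside -2.44 ± 0.12 with HGF.

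ITGB6, the integrin subunit of the receptor that activates latent TGF-beta, read 12.48, 12.53, 12.63 and 12.47 in Control and 10.38, 10.49, 10.25 and 10.52 in HGF + PD. The change of -2.11 ± 0.07 (4.33-fold, adjusted p = 1.09e-10) stood beside -0.20 ± 0.07 with HGF. A second bright ITGB6 probe set gave -1.84 and a dim one -0.09. LOC607806, a locus without a gene name, fell by 3.23 ± 0.17 and TMC5, of the transmembrane channel-like family, by 2.56 ± 0.17. IL13RA2, the decoy receptor of interleukin 13, fell by 2.25 ± 0.21 to 4.04 ± 0.22 (SD, n = 4), at the filter level. FAM149A (-2.07 ± 0.11), SLC4A11, a membrane transporter of the bicarbonate transporter family (-1.97 ± 0.31, and -0.05 on a dim probe set), and NDRG2 (-1.92 ± 0.09) complete the 10 largest falls.

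**Figure D2:**
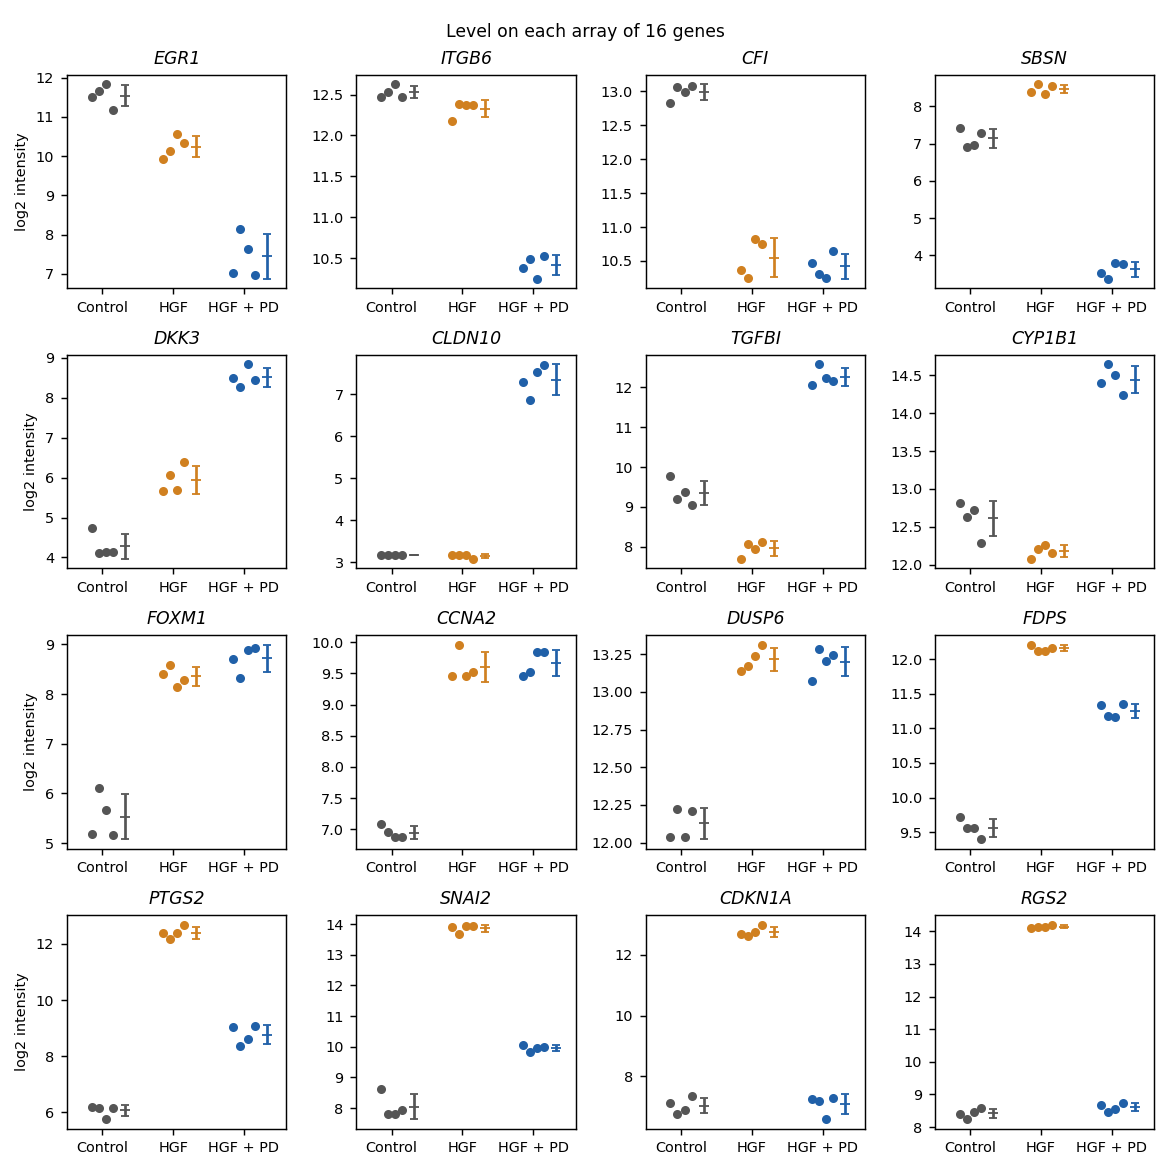
Log2 intensity of 16 genes on each of the 4 Control, 4 HGF and 4 HGF + PD arrays (points), with the mean ± SD of each group beside them, each panel on its own vertical scale. EGR1, ITGB6 and SBSN are lowest with HGF + PD, DKK3, CLDN10, TGFBI and CYP1B1 are highest there, FOXM1, CCNA2 and DUSP6 are at similar levels in HGF and HGF + PD, FDPS, PTGS2 and SNAI2 lie between Control and HGF, and CDKN1A and RGS2 are near Control.

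Cell cycle genes were raised over Control in HGF + PD cells, as they were in HGF cells. Of 25 measured mitosis genes 23 were higher than Control and 0 lower (92% against 21.8% of all genes), with a median difference of 2.11, beside 23, 0 and 2.05 for HGF against the same Control arrays. Set directly against HGF, 8 of these genes were higher in HGF + PD, 7 were lower and the others did not pass. CCNA2, the cyclin of S phase and mitosis, read 7.09, 6.95, 6.87 and 6.87 in Control and 9.46, 9.52, 9.84 and 9.84 in HGF + PD. The HGF arrays, at 9.45 to 9.96, covered the HGF + PD range and lay clear of Control. CCNA2 rose by 2.72 ± 0.12 (6.58-fold, adjusted p = 2.12e-09), and HGF + PD differed from HGF by 0.07 (adjusted p = 0.67). TTK, the kinase of the spindle checkpoint, read 6.00, 5.90, 4.45 and 5.50 in Control and 8.87, 8.60, 8.98 and 9.19 in HGF + PD, a rise of 3.44 ± 0.26. FOXM1, the transcription factor of the mitotic gene programme, read 5.19, 6.11, 5.66 and 5.17 in Control and 8.72, 8.33, 8.90 and 8.94 in HGF + PD (3.19 ± 0.21, adjusted p = 5.48e-08). Both genes were thus low on all Control arrays and at one level on all HGF + PD arrays, although a second FOXM1 probe set gave 0.20 and did not pass.

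Other mitotic genes with wide rises were NEK2, a centrosome kinase (3.06 ± 0.18), BUB1B, of the spindle checkpoint (2.62 ± 0.10), and CEP55, which acts in the final separation of daughter cells (3.35 ± 0.22). MELK, a mitotic kinase, rose by 3.18 ± 0.17. DEPDC1 differed by 3.37 ± 0.21 from a Control mean of 3.36, below the filter. Its probe set was kept only because it was high in groups given HGF, so no test is read from it. NEK2 and BUB1B were also higher than in HGF alone, by 0.91 (adjusted p = 0.000665) and 0.54 (adjusted p = 0.000486), while CEP55 was lower than in HGF, with a difference of -1.07 (adjusted p = 0.000769). The members that did not pass were KIF2C, a kinesin that shortens microtubules (0.30 ± 0.13), and UBE2C, a ubiquitin enzyme of mitotic exit (-0.11 ± 0.08).

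Replication and S phase genes rose in like numbers, 27 of 30 higher and 1 lower (90% against 21.8%), with a median of 1.00, beside 27, 1 and 0.90 for HGF. Set directly against HGF, 12 were higher and 6 lower in HGF + PD. PCNA, the sliding clamp of DNA polymerase, read 10.01, 9.96, 9.88 and 9.92 in Control, 10.73, 11.09, 10.91 and 10.74 in HGF, and 11.66, 11.61, 11.63 and 11.71 in HGF + PD. The 3 groups were separate, with HGF + PD highest. PCNA rose by 1.71 ± 0.07 over Control (3.27-fold, adjusted p = 7.90e-10) and stood 0.78 above HGF (adjusted p = 1.82e-07). MCM5, of the replicative helicase, stood 1.34 ± 0.10 above Control and 0.81 above HGF (adjusted p = 1.11e-05). ORC1, of the origin recognition complex, rose by 3.45 ± 0.22 over Control and stood at -0.59 from HGF (adjusted p = 0.0346), and thymidine kinase TK1 rose by 1.91 ± 0.12. RFC1, a clamp loader subunit, was the member that fell (-0.25, against 0.33, 0.10 and 0.17 on other probe sets, which did not pass), and RRM2, of ribonucleotide reductase, had a 95% interval from -0.14 to 0.13 at a level of 13.50 on its brightest probe set. RNASEH2A, an RNase H2 subunit outside these lists, rose by 1.34 ± 0.10, while the Control and HGF means were both 7.06.

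Of 15 G1 regulators 5 were higher and 2 lower (33.3% and 13.3%, against 21.8% and 13.5% of all genes), with a median of 0.06. The share lower was thus near that of all genes. The count of lower genes was 0 without Control replicate 2 or 3. It was 1 without Control replicate 1 or 4 or HGF + PD replicate 1, 2 or 3. CDKN1A, the CDK inhibitor p21, read 7.12, 6.77, 6.91 and 7.35 in Control, 12.70, 12.61, 12.73 and 12.99 in HGF, and 7.25, 7.20, 6.60 and 7.29 in HGF + PD. The Control and HGF + PD arrays overlapped, with a difference of 0.04 (95% interval -0.30 to 0.39), against 5.72 ± 0.16 with HGF. CCND1, cyclin D1 of the G1 phase, likewise differed by 0.09 (interval -0.07 to 0.25) beside 2.53 ± 0.07 with HGF. CDKN2C, the CDK4 and CDK6 inhibitor p18, read 10.07, 10.08, 10.01 and 10.18 in Control and 11.51, 11.06, 11.46 and 11.53 in HGF + PD. CDKN2C rose by 1.31 ± 0.13 (adjusted p = 3.43e-06), and HGF differed from Control by -0.13 ± 0.13. The related inhibitor CDKN2D (1.07 ± 0.14) and the S phase cyclins CCNE1 (1.14 ± 0.14) and CCNE2 (1.07 ± 0.19) also rose, although a second CCNE1 probe set gave -0.03.

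**Figure D3:**
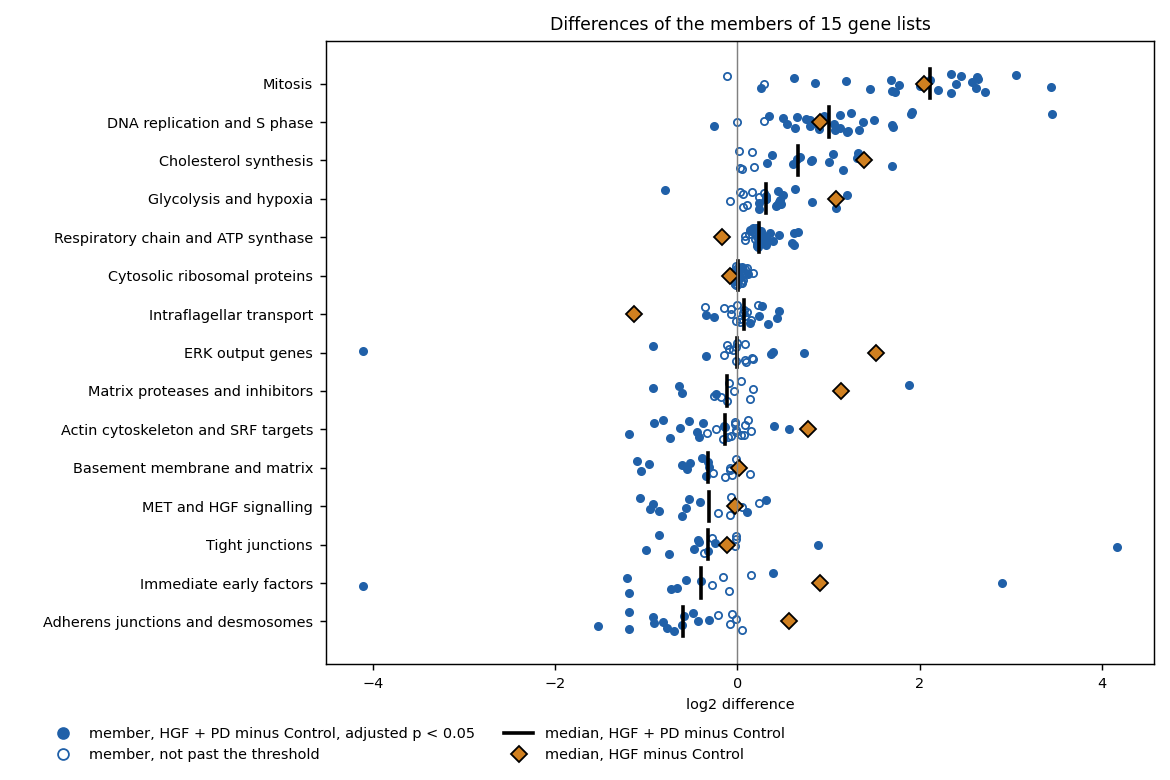
Log2 difference of HGF + PD against Control for each measured member of 15 gene lists (filled circles, adjusted p under 0.05; open circles, not past it), with the median of the list (bar) and the median log2 difference of HGF against the same Control arrays (diamond). The bar lies at 2.11 for mitosis, 0.24 for the respiratory chain and -0.60 for adherens junctions and desmosomes. No test is read from the filled circle of CLDN10, at 4.16 among the tight junction genes. The diamond lies apart from the bar, at -1.14 against 0.07, for intraflagellar transport and at 1.52, with the bar close to 0, for the ERK output genes.

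Immediate early factors, the first transcription factors that growth factors induce, were lower than Control more often than higher. Of 13 measured, 7 were lower and 2 higher (53.8% against 13.5% of all genes lower), with a median of -0.40, while HGF alone had 10 higher and 1 lower with a median of 0.91. FOS, an AP-1 subunit, read 13.15, 13.30, 13.22 and 13.22 in Control, 14.19 to 14.27 in HGF, and 12.13, 12.07, 11.82 and 12.11 in HGF + PD. FOS was thus highest with HGF and lowest with HGF + PD, without overlap, at -1.19 ± 0.07 from Control (2.28-fold, adjusted p = 1.85e-08). IER2 fell by 1.21 ± 0.08, JUN by 0.73 ± 0.16, JUNB by 0.66 ± 0.11, KLF10 by 0.56 ± 0.18 and KLF6 by 0.40 ± 0.10. KLF10 did not pass without HGF + PD replicate 4 (-0.49, adjusted p = 0.0727) or replicate 3 (-0.53, adjusted p = 0.0594). KLF4, a factor of epithelial differentiation, rose instead. It read 6.66, 6.30, 5.80 and 6.29 in Control and 9.19, 8.87, 9.21 and 9.40 in HGF + PD, a rise of 2.90 ± 0.16 (adjusted p = 1.43e-08) on its bright probe set, against -0.06 on a dim one. MYC, a growth regulator, was 0.39 ± 0.11 higher, with arrays that overlapped.

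Of 9 feedback inhibitors of ERK signalling 1 was higher and 2 lower (1 lower without replicate 1, 3 or 4 of Control or 1 of HGF + PD), against 7 higher and 0 lower with HGF. The HGF + PD shares were 11.1% higher and 22.2% lower, beside 21.8% and 13.5% of all genes. DUSP6, the cytosolic phosphatase of ERK, was the one that rose. It read 12.04, 12.22, 12.04 and 12.21 in Control, 13.14, 13.17, 13.24 and 13.31 in HGF, and 13.07, 13.29, 13.20 and 13.25 in HGF + PD. The HGF + PD and HGF arrays overlapped and both lay above Control. The rise was 1.07 ± 0.06 (2.11-fold, adjusted p = 9.01e-09), and 1.04 on a second probe set, beside 1.09 ± 0.06 with HGF. DUSP1, a nuclear MAPK phosphatase, read 9.92, 10.00, 9.99 and 10.08 in Control and 9.48, 9.37, 9.39 and 9.58 in HGF + PD. It fell by 0.55 ± 0.07 (adjusted p = 2.36e-05), beside a rise of 1.74 ± 0.07 with HGF, although 1 of its 2 other probe sets did not pass (-0.12). The second fall, that of DUSP7 (-0.39 ± 0.13, adjusted p = 0.0373), had overlapping arrays and did not pass with the 8 arrays alone (adjusted p = 0.0716). Of 18 ERK output genes 3 were higher, 3 lower and 12 did not pass, against 11 higher and 1 lower with a median of 1.52 for HGF. The HGF + PD shares, 16.7% higher and 16.7% lower, were near the 21.8% and 13.5% of all genes. EGR1, given above, is counted among the lower genes of this list as well as among the immediate early factors. IER3, an early survival gene, rose by 0.73 ± 0.11, and EPHA2, an ephrin receptor, and PLAU, urokinase, fell by 0.34 ± 0.10 and 0.93 ± 0.15.

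Of 16 genes of HGF signalling itself 8 were lower and 2 higher (50% against 13.5% lower), with a median of -0.31. The count of higher genes was 0 without replicate 2 or 3 of Control or 4 of HGF + PD, and 1 without replicate 1 or 4 of Control or 3 of HGF + PD. MET, the HGF receptor, read 11.34, 11.41, 11.36 and 11.61 in Control, 12.09, 12.26, 12.21 and 12.30 in HGF, and 10.78, 10.77, 10.76 and 10.96 in HGF + PD. MET was thus above Control in every HGF array and below it in every HGF + PD array (-0.61 ± 0.07, adjusted p = 9.44e-06). STAT3, the transcription factor that MET activates, read 10.63, 10.73, 10.59 and 10.70 in Control and 9.50, 9.70, 9.70 and 9.49 in HGF + PD. Its groups did not overlap, and its 4 probe sets gave -1.06 ± 0.07, -1.15, -0.97 and -0.97. The adaptors GAB1 (-0.96 ± 0.15) and GRB2 (-0.86 ± 0.17) and the receptor phosphatase PTPRJ (-0.93 ± 0.18) fell as well, with GAB1 at -1.07 and PTPRJ at -1.02 for HGF. A dimmer GRB2 probe set gave 0.05. LIFR, the receptor of leukemia inhibitory factor, fell by 0.83 ± 0.18 (-0.43 on a second probe set, which did not pass). Among 11 EGF family genes the ERBB receptors ERBB2 (-0.57 ± 0.11), ERBB3 (-0.60 ± 0.14) and EGFR (-0.23 ± 0.07, adjusted p = 0.069 with the 8 arrays alone) fell, and NRG1, a ligand of ERBB3, rose. Another EGFR probe set gave -0.10 and did not pass. NRG1 read 7.56, 7.23, 6.72 and 6.91 in Control, 7.80 to 8.03 in HGF, and 9.64, 9.23, 9.04 and 9.77 in HGF + PD. NRG1 was highest with HGF + PD on all 4 arrays, 2.31 ± 0.19 above Control (4.97-fold) and 1.51 above HGF (adjusted p = 8.26e-06).

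Cell adhesion genes were lower than in Control. Of 18 genes of adherens junctions and desmosomes 13 were lower and 0 higher (72.2% against 13.5% lower), with a median of -0.60, while HGF had 12 higher and 6 lower with a median of 0.57. The summed epithelial markers given above, which include CDH1, were lower on the same arrays, and their part in these differences was not tested. CDH1, E-cadherin, read 9.70, 9.81, 9.75 and 9.93 in Control and 8.97, 9.24, 9.14 and 9.09 in HGF + PD. All HGF + PD arrays lay below all Control arrays, at -0.69 ± 0.09 (1.62-fold, adjusted p = 2.54e-05), beside 0.60 ± 0.09 with HGF. CDH16, the kidney cadherin, read 10.88, 10.67, 10.93 and 10.59 in Control and 8.86, 9.61, 9.16 and 9.34 in HGF + PD. It had the deepest fall of the list (-1.53 ± 0.19), though one of its 3 probe sets did not pass (-0.19). The catenins CTNNA1 (-0.61 ± 0.06) and CTNND1 (-0.91 ± 0.26), plakoglobin JUP (-0.82 ± 0.16) and the desmosomal DSC2 (-0.93 ± 0.09) and DSP (-0.43 ± 0.10) fell too. CTNND1 and the linker protein VCL (-1.19 ± 0.37) fell with arrays that overlapped, and VCL did not pass without HGF + PD replicate 1 (-0.94, adjusted p = 0.0758) or without replicates 1 or 3 of Control or 3 or 4 of HGF + PD. CDH3, P-cadherin, fell by 1.19 ± 0.12, against -0.05 on a dimmer probe set. CDH2, N-cadherin, and DSG3, a desmosomal cadherin, had group means below the filter level in both groups.

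**Figure D4:**
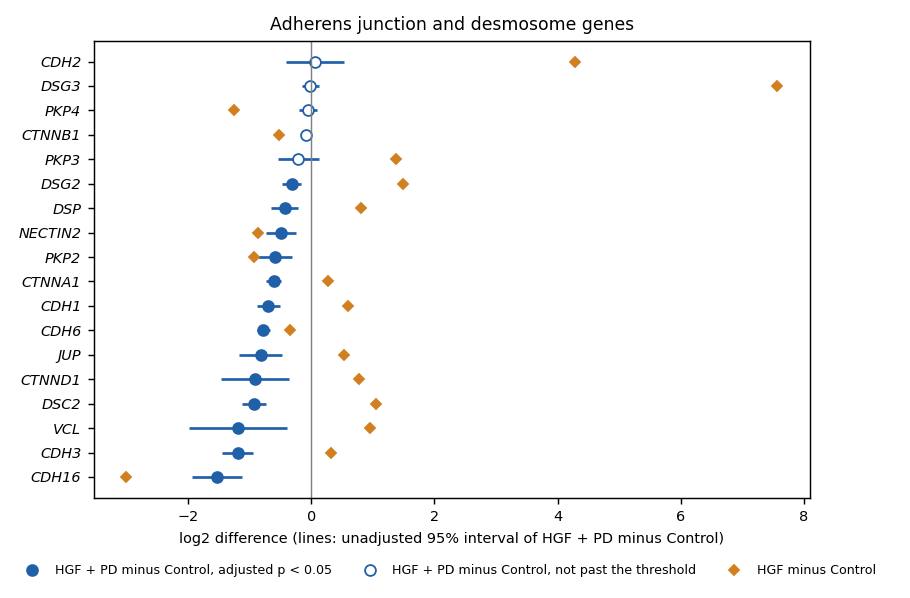
Log2 difference of HGF + PD against Control for 18 genes of adherens junctions and desmosomes (circles, with unadjusted 95% intervals) beside that of HGF against the same Control arrays (diamonds). The 13 filled circles lie between -1.53 (CDH16) and -0.31 (DSG2), and for CDH1, JUP, CTNND1, DSC2 and VCL the diamond lies above 0.

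Of 15 tight junction genes 8 were lower and 2 higher (53.3% against 13.5% of all genes lower). The 2 higher were CLDN16 and CLDN10, and no test is read from CLDN10, as given above. CLDN4, a claudin that tightens the paracellular path, read 10.95, 10.82, 11.02 and 11.07 in Control, 11.97 to 12.05 in HGF, and 10.08, 9.98, 9.79 and 10.02 in HGF + PD, so that Control lay between the other two groups. It fell by 1.00 ± 0.07 (2.00-fold, adjusted p = 1.06e-07). The junction plaque proteins CGN (-0.86 ± 0.10) and TJP1 (-0.42 ± 0.07) and CLDN1 (-0.74 ± 0.16) also fell, although a second TJP1 probe set did not pass (-0.11). CLDN16, a claudin of magnesium transport, rose by 0.88 ± 0.09. CLDN2, the pore claudin of leaky epithelia, had a difference of -0.37 (95% interval -1.12 to 0.38) against -4.80 ± 0.35 with HGF. Of 13 polarity genes 6 were lower and 1 higher (3 lower and 2 higher without HGF + PD replicate 1). The shares were 46.2% lower and 7.69% higher, against 13.5% and 21.8% of all genes. PRKCI, the atypical protein kinase C, stood at -0.69 ± 0.05 and PARD6B, its partner, at -0.84 ± 0.11.

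Integrins are the receptors of the matrix. Of 13 integrin genes 5 were lower and 3 higher (38.5% and 23.1%, against 13.5% and 21.8% of all genes), beside 8 higher and 4 lower with HGF. The 3 higher calls did not hold, with 0 after quantile normalization or without Control replicate 2 and 1 after median centring, with the 8 arrays alone, or without replicate 3 of Control or 3 or 4 of HGF + PD. ITGA2, a collagen receptor subunit, read 13.73, 13.72, 13.62 and 13.71 in Control and 12.29, 12.71, 12.66 and 12.47 in HGF + PD, below Control on all arrays (-1.16 ± 0.08), in contrast to 0.84 ± 0.08 with HGF. ITGB8 fell by 1.64 ± 0.14 and ITGB6 as given above. ITGA6, a laminin receptor subunit, was 0.20 ± 0.07 higher (adjusted p = 0.0487) beside 4.34 ± 0.07 with HGF, but did not pass on its 3 other probe sets or with the 8 arrays alone (adjusted p = 0.0896). Of 17 basement membrane and matrix genes 10 were lower and 0 higher (58.8% against 13.5% lower), with 1 higher without Control replicate 4 or HGF + PD replicate 3. Among them LAMB3, a laminin chain, fell by 1.06 ± 0.08, agrin (AGRN) by 0.97 ± 0.17, the netrin NTN4 by 1.10 ± 0.13 and perlecan (HSPG2) by 0.61 ± 0.10. Another AGRN probe set gave -0.11 and did not pass. Of 27 actin cytoskeleton genes 10 were lower and 2 higher (37% and 7.41%, against 13.5% and 21.8% of all genes), with a median of -0.13 beside 0.77 for HGF. When 1 array was left out, 7 to 12 were lower. ACTN1, an actin crosslinker, fell by 0.74 ± 0.16, radixin (RDX) by 0.91 ± 0.12 and the non-muscle myosin MYH9 by 0.63 ± 0.10, while the calponin CNN3 (0.56 ± 0.07) and cofilin CFL1 (0.40 ± 0.06) rose. Another probe set each of ACTN1 (-0.11) and MYH9 (-0.38) did not pass.

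Among the genes that HGF raised most, some were near Control level in HGF + PD, some stayed part of the way up, and TIMP1 was below Control. MMP13, a collagenase, read 4.06, 4.33, 4.48 and 4.21 in Control, 11.81, 11.17, 12.23 and 12.19 in HGF, and 4.11, 4.13, 4.12 and 4.00 in HGF + PD. The HGF + PD arrays overlapped with Control at the filter level (difference -0.18, interval -0.62 to 0.26). DSG3, TFPI2 and ISG20 lay below the filter in both Control and HGF + PD, beside HGF means of 9.54, 9.87 and 8.39. RGS2, which shortens G protein signals, differed from Control by 0.19 (interval -0.03 to 0.41) against 5.72 with HGF. TIMP1, an inhibitor of matrix proteases, was below Control (-0.61 ± 0.09, adjusted p = 0.000126) against 7.41 with HGF.

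PTGS2, the inducible cyclooxygenase, read 6.18, 6.17, 5.76 and 6.16 in Control, 12.37, 12.16, 12.39 and 12.68 in HGF, and 9.03, 8.38, 8.60 and 9.06 in HGF + PD. The HGF + PD arrays stood between the other groups without overlap, 2.70 ± 0.21 above Control (6.50-fold, adjusted p = 2.97e-07) and 3.63 below HGF. SNAI2, a repressor of epithelial genes, read 8.64, 7.79, 7.82 and 7.92 in Control and 10.05, 9.83, 9.96 and 10.00 in HGF + PD. It rose by 1.92 ± 0.18 beside 5.82 with HGF. FABP3, a fatty acid carrier (2.68 ± 0.15 beside 5.55), SERPINE2, a protease inhibitor (1.88 ± 0.11 beside 5.74), and S100A2, a calcium-binding protein (0.38 ± 0.07 beside 6.34), were likewise above Control and below HGF. One SERPINE2 probe set gave 3.69 and another 0.20, which did not pass. Of 13 matrix proteases and inhibitors 1 was higher and 4 lower (7.69% and 30.8%), against 9 and 0 with HGF. Of 10 mesenchymal transition genes 4 rose and 1 fell (40% and 10%). Over all genes the shares were 21.8% higher and 13.5% lower.

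Among genes that HGF lowered, CLTRN, an amino acid transporter partner, differed from Control by -0.28 (interval -0.52 to -0.04, adjusted p = 0.0679) beside -6.12 with HGF, and RIPPLY1 by 0.02 beside -4.96. PDZK1, a scaffold of apical transporters, read 12.62, 12.47, 12.53 and 12.60 in Control, 4.85, 4.84, 7.08 and 5.33 in HGF, and 13.44, 13.49, 13.41 and 13.50 in HGF + PD. All 4 HGF + PD arrays lay above all Control arrays, but the difference of 0.91 ± 0.35 did not pass in the fit that shares its spread with the HGF arrays (adjusted p = 0.0632). It passed with the 8 Control and HGF + PD arrays alone (adjusted p = 4.92e-06), and on a second probe set (0.90, adjusted p = 0.017). DEPTOR, an mTOR inhibitor, differed by 0.39 (interval -0.03 to 0.82) beside -4.28 with HGF.

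Several genes that HGF lowered stood above Control in HGF + PD. MGST1, a microsomal glutathione transferase, read 6.64, 5.69, 5.68 and 6.11 in Control, 2.94 to 3.75 in HGF, and 9.30, 8.74, 9.40 and 9.07 in HGF + PD. It was below the filter on all HGF arrays and highest on all HGF + PD arrays (3.09 ± 0.23, 8.54-fold). TGFBI, a secreted matrix protein, read 9.77, 9.20, 9.38 and 9.05 in Control and 12.07, 12.58, 12.23 and 12.17 in HGF + PD (2.91 ± 0.15, adjusted p = 5.26e-09), beside -1.39 ± 0.15 with HGF. ACOT12, an acetyl-CoA thioesterase (3.00 ± 0.13), KITLG, the ligand of KIT (2.62 ± 0.31), LIPA, the lysosomal acid lipase (2.21 ± 0.14), KLHDC9 (2.03 ± 0.23), MME, the brush border peptidase neprilysin (1.97 ± 0.25), and CLEC7A, a pattern receptor (1.91 ± 0.12), had the same pattern. HGF differences of these 6 ran from -3.22 (MME) to -0.62 (CLEC7A), and dimmer probe sets of ACOT12, KLHDC9 and CLEC7A gave 0.88, 0.60 and 0.41.

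The reverse pattern, above Control with HGF and below it with HGF + PD, was led by SBSN, IL13RA2 and SLC4A11, given above. TNS4, a focal adhesion protein of the tensin family, read 8.86, 8.78, 8.84 and 8.39 in Control, 10.80, 10.98, 11.21 and 11.18 in HGF, and 6.90, 7.04, 7.00 and 6.48 in HGF + PD. The 3 groups stood apart, with HGF + PD lowest (-1.86 ± 0.18, 3.63-fold, adjusted p = 3.23e-06). OSBPL3, of the oxysterol-binding family (-1.50 ± 0.12), AHNAK2, a large scaffold protein (-1.46 ± 0.16), MAP3K5, a stress kinase (-1.24 ± 0.23), and ABCB1, the P-glycoprotein efflux pump (-1.21 ± 0.10), completed the 8 largest of this kind. Of genes that fell both with HGF and with HGF + PD, SLC22A2, an organic cation transporter, differed by -1.85 ± 0.10 (-3.63 with HGF).

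Genes that differed from Control in HGF + PD while HGF was within 0.3 of Control included FNDC4 (1.89 ± 0.15), the centrosomal CEP112 (1.63 ± 0.20), ENOSF1 (1.51 ± 0.14) and NARS2, a mitochondrial tRNA synthetase (1.11 ± 0.25). FNDC4, a secreted protein, read 9.24, 8.86, 9.10 and 8.61 in Control and 10.58, 11.15, 10.89 and 10.76 in HGF + PD. On the lower side were ADGRG1, an adhesion G protein-coupled receptor (-1.55 ± 0.12), DLG2 (-1.42 ± 0.19), FNIP2 (-1.29 ± 0.16), ANKRD12 (-1.27 ± 0.11) and ZNF462 (-1.10 ± 0.14). ADGRG1 read 10.71, 10.63, 10.93 and 10.68 in Control, 10.82 to 11.19 in HGF, and 8.96, 9.53, 9.13 and 9.12 in HGF + PD, where every array was lower than all the others.

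By the medians of their lists, metabolic genes moved less than the mitosis and replication genes. Cholesterol synthesis genes rose in 13 of 18 cases and fell in 0 (72.2% against 21.8%), with a median of 0.67 beside 15, 0 and 1.39 for HGF. FDPS, farnesyl diphosphate synthase, read 9.71, 9.55, 9.56 and 9.40 in Control, 12.12 to 12.21 in HGF, and 11.34, 11.18, 11.16 and 11.35 in HGF + PD. It stood between Control and HGF on every array (1.70 ± 0.06, adjusted p = 5.21e-10). The sterol sensor INSIG1 (1.32 ± 0.08) and HMGCS1, which makes HMG-CoA (1.15 ± 0.06), rose as well, beside 2.88 and 2.27 with HGF. Glycolysis and hypoxia genes numbered 26, of which 17 rose and 1 fell (65.4% and 3.85%, against 21.8% and 13.5% of all genes). Their median was 0.31 beside 1.08 for HGF, and 12 to 19 rose when 1 array was left out. The lactate exporter SLC16A3 (1.21 ± 0.10) and hexokinase HK2 (1.08 ± 0.08) led, although a second HK2 probe set gave -0.05, and NDRG1, a hypoxia-responsive gene, fell by 0.79 ± 0.11.

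Genes of the mitochondrial respiratory chain and ATP synthase were slightly but widely higher. Of 28, 24 were higher and 0 lower (85.7% against 21.8%), with a median of 0.24, while HGF had 3 higher and 17 lower with a median of -0.17. CYCS, cytochrome c, read 11.49, 11.43, 11.42 and 11.53 in Control and 12.19, 12.09, 12.09 and 12.15 in HGF + PD, without overlap (0.66 ± 0.05, 1.58-fold, adjusted p = 1.33e-07). NDUFB5, of complex I, read 12.24, 12.23, 12.17 and 12.29 in Control, 10.90 to 11.19 in HGF, and 12.97, 12.70, 12.86 and 12.82 in HGF + PD. Control lay between the other groups, at 0.60 ± 0.07 below HGF + PD. NDUFA8 of complex I (0.63 ± 0.05), CYC1 of complex III (0.62 ± 0.07), SDHA of complex II (0.25 ± 0.05) and COX5B of complex IV (0.25 ± 0.04) rose too. Of 40 cytosolic ribosomal protein genes 1 was higher (RPLP2, 0.11 ± 0.04, adjusted p = 0.0982 with the 8 arrays alone) and 0 lower, beside 1 higher and 22 lower with HGF. The share higher was 2.5%, against 21.8% of all genes. The median was 0.01, with differences from -0.08 to 0.17. The count higher was 5 without HGF + PD replicate 2, 3 without Control replicate 4, and 0 without replicates 2 or 3 of Control or 3 or 4 of HGF + PD. Without HGF + PD replicate 1, 1 was lower.

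**Figure D5:**
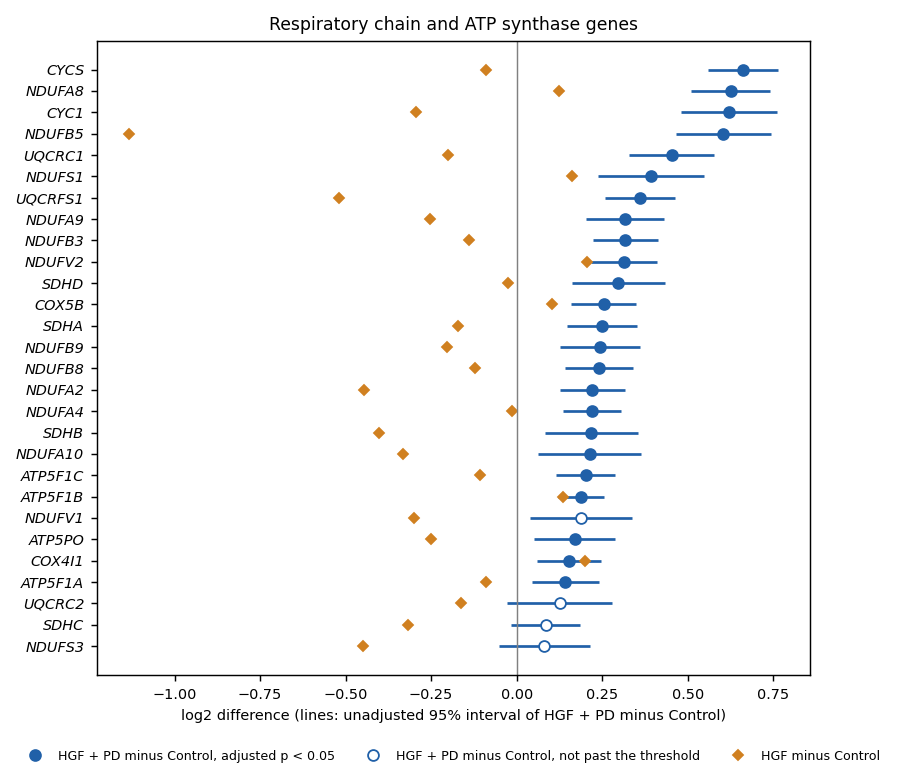
Log2 difference of HGF + PD against Control for 28 genes of the respiratory chain and ATP synthase (circles, with unadjusted 95% intervals), beside that of HGF against the same Control arrays (diamonds). All circles lie above 0, from 0.08 to 0.66 (CYCS), and 24 are filled, that is past the adjusted threshold. NDUFB5 has the widest gap, with its diamond at -1.13.

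Genes of xenobiotic metabolism included some of the brightest rises. The aryl hydrocarbon receptor is a transcription factor that many flat aromatic compounds activate, and CYP1B1, TIPARP and NQO1 are among its known targets. CYP1B1, a cytochrome P450, read 12.81, 12.63, 12.72 and 12.29 in Control, 12.08 to 12.27 in HGF, and 14.40, 14.64, 14.50 and 14.23 in HGF + PD. All HGF + PD arrays were higher than all others (1.83 ± 0.10, 3.56-fold, adjusted p = 1.36e-08). TIPARP, an ADP-ribosyltransferase, read 10.64, 10.60, 10.54 and 10.65 in Control and 12.61, 12.72, 12.66 and 12.58 in HGF + PD. It rose by 2.03 ± 0.06 (4.09-fold, adjusted p = 3.44e-11) beside 0.71 ± 0.06 with HGF. NQO1, a quinone reductase, rose by 2.63 ± 0.10, beside 2.44 ± 0.10 with HGF. Of the list's 8 genes these 3 were higher and 2 lower (AHR itself, -0.40 ± 0.06, and NFE2L2). These shares were 37.5% and 25%, against 21.8% and 13.5% of all genes. Another NFE2L2 probe set gave -0.02 and did not pass. Of 21 NRF2 and antioxidant genes 8 were higher and 4 lower (38.1% and 19%, against 21.8% and 13.5% of all genes). After quantile normalization or median centring 7 were higher and 6 lower. MGST2 stood at 0.99 ± 0.08 and the efflux pump ABCC2 at -1.22 ± 0.15.

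The HGF + UO arrays, from a compound at 10 uM rather than 50 uM, are given side by side without a test, since doses differ. Group means in HGF + PD and HGF + UO (n = 4 and 3) were 8.51 and 5.02 for DKK3, 7.44 and 8.09 for EGR1 and 7.34 and 6.26 for CLDN10. They were 13.20 and 12.48 for DUSP6, 8.72 and 7.80 for FOXM1, 10.41 and 10.86 for ITGB6, 12.26 and 12.12 for TGFBI and 14.44 and 14.78 for CYP1B1.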

How the data were processed

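RNA from MDCK cells was hybridised to 15 Affymetrix canine arrays. The authors deposited 1 linear intensity per probe set, and the submitters' processing notes name GCRMA. That method subtracts a background estimated from probe sequence, normalises between arrays and pulls dim probe sets towards a floor, so large folds from a group near the floor depend on that background. No version is given. Arrays have no read depth, and their number limits the precision.

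Values were used as log2 without rescaling. After removal of 111 control probe sets, those with log2 of at least 4 on at least 3 arrays were kept. Symbols came from the platform annotation, which gives 1 symbol for 29254 probe sets, several for 439 (not named) and lists none for 13231. The entrez_id update changed 0 symbols. A linear model with 1 mean for each of 4 groups was fitted to all 15 arrays (limma 3.58.1, R 4.3.3, eBayes with a variance trend), with Benjamini-Hochberg adjustment over the 24904 probe sets and a threshold of 0.05. All groups share the estimate of spread. The procedure was tested on simulated data. Array measures were compared by two-sided exact permutation tests. At most 12.1% of values were identical between any 2 arrays.

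Genes were described by 46 lists (982 symbols, 704 measured). The members and lists were chosen with earlier results of these data known, so counts are set beside those over all genes, with no set test. Named genes were, first, the 10 largest rises and falls and the 8 largest each way kept from, opposite to or added to the HGF change (within 0.3 for HGF). These were past the threshold, with groups not overlapping and the mean of the higher group at least 6. Without these conditions on overlap and level came 8 near Control despite an HGF size of at least 3, up to 4 per list by adjusted p, and genes set by name. CYP1A1 was among the last and had no usable probe set. Further list members were named after their values were seen. Alternatives were the 8 arrays alone, no filter, a filter at 6, quantile normalization, median centring, no variance trend, a replicate block, each array left out, and other probe sets.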

Additional observations from a re-analysis of the deposited data

Results flagged for a closer look

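For 15 of the 170 genes named (DSP in both groups) and for 1 array measure, 1 of the 4 arrays of a group stood so far from the other 3 that its gap to the nearest of them, as a share of the range of the group, passed Dixon's critical value for 4 values at the 95% level. This was found in 17 of 350 groups tested, and chance alone gives about 1 in 20.

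In HGF + PD, replicate 2 was apart for 4 genes. It was the lowest for CDKN2C (11.06 against 11.46 to 11.53, share 0.853) and the highest for CLDN2 (10.05 against 9.41 to 9.51, share 0.843), NDRG1 (8.09 against 7.74 to 7.77, share 0.915) and NTN4 (8.69 against 8.20 to 8.28, share 0.833). Replicate 1 was the lowest for LAMB3 (9.76 against 9.97 to 10.00, share 0.852) and DSP (9.10 against 9.26 to 9.30, share 0.836). Replicate 3 was the lowest for CDKN1A (6.60 against 7.20 to 7.29, share 0.869), and replicate 4 was the highest for MET (10.96 against 10.76 to 10.78, share 0.912). The percentage of probe sets at or above the filter level was lowest on HGF + PD replicate 4 (56.9, against 57.0 on the others, share 0.879).

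In Control, replicate 4 was the lowest for DEPDC1 (3.04 against 3.44 to 3.50, share 0.873) and DSP (9.50 against 9.71 to 9.74, share 0.892) and the highest for EGFR (10.54 against 10.20 to 10.23, share 0.903). Replicate 1 was the highest for DKK3 (4.74 against 4.11 to 4.13, share 0.959) and SNAI2 (8.64 against 7.79 to 7.92, share 0.843) and the lowest for SLC12A2 (12.63 against 12.71 to 12.72, share 0.886). Replicate 3 was the lowest for DLG2 (5.68 against 6.18 to 6.25, share 0.875) and PTGS2 (5.76 against 6.16 to 6.18, share 0.958).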

How the results depend on the processing

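The count of 8579 probe sets past the threshold moved to between 8189 (no filter) and 8820 (replicate block) under the other settings, and to between 7227 and 8592 when 1 array was left out. The share of higher among them, 58.6%, was 51.1% after quantile normalization and 51.9% after median centring. The replicate numbers were not treated as pairs in the main fit. Deviations of same-numbered arrays from their group means correlated by -0.188, -0.00504, 0.0319 and 0.284. Arrays of different number were not compared in this way, so these values cannot tell whether same-numbered arrays share a culture or day. Of the named genes the replicate block ended 1 call, that of DUSP7 (adjusted p = 0.0546). Of the gene groups led with, mitosis kept 23 to 24 higher members when 1 array was left out, replication 27 to 28, cholesterol synthesis 13 and the respiratory chain 21 to 25 (22 after quantile normalization, 21 after median centring), and adherens junctions and desmosomes 12 to 14 lower members. Among lists of few calls, the ERK feedback genes had 1 lower in place of 2 without replicates 1, 3 or 4 of Control or 1 of HGF + PD. No named gene changed direction past the threshold under another filter, scaling, variance model or array left out. Another probe set of the gene gave the opposite sign in 10 cases, none past the threshold, with CCNE1 at -0.027, CLDN10 at -0.084 and -0.022, GRB2 at 0.050, HK2 at -0.047, ITGA6 at -0.011, KLF4 at -0.061 and RFC1 at 0.33, 0.10 and 0.17. In a further 21 cases it did not pass. CLTRN passed with the 8 arrays alone (adjusted p = 0.0454), after either scaling (0.0284 and 0.0291) and without Control replicate 3, as KIF2C did with the 8 arrays (0.0396) and without that replicate. Changes of genes near the floor of the intensities are limited by the background subtraction.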

Other observations

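Some gene groups not counted above are given here. Of 9 STAT3 and cytokine feedback genes, STAT3 and LIFR among them, 4 were lower and 0 higher (44.4% against 13.5% of all genes lower). Their median was -0.31, beside 8 higher and 1 lower with HGF. Of 19 interferon-induced genes 8 were lower and 1 higher in HGF + PD than in Control (42.1% against 13.5% of all genes lower). Among the lower were IFI44L (-0.84 ± 0.09), the antiviral OAS2 (-0.80 ± 0.10) and the ubiquitin-like ISG15 (-0.71 ± 0.10), beside -0.81, 1.65 and 0.18 with HGF. The 1 higher call was lost after either scaling and without replicate 2 or 3 of Control or 1 or 4 of HGF + PD, and 2 were higher without HGF + PD replicate 2. Of 31 lysosome and autophagy genes 10 were lower and 5 higher (32.3% and 16.1%, against 13.5% and 21.8% of all genes). The count of higher genes was 3 after either scaling and without replicate 2 or 3 of Control or 1 or 4 of HGF + PD. The lysosomal calcium channel MCOLN1 stood at -0.91 ± 0.17 and the autophagy receptor SQSTM1 at -0.54 ± 0.15. Of 22 unfolded protein response and ATF4 genes 8 were higher and 2 lower (36.4% and 9.09%, against 21.8% and 13.5% of all genes), beside 20 and 2 with HGF. The serine synthesis enzyme PHGDH rose by 0.97 ± 0.08 and asparagine synthetase ASNS by 0.76 ± 0.09, while HERPUD1, of protein degradation at the endoplasmic reticulum, fell by 0.64 ± 0.05. The remaining lists of lipid metabolism included SCD, the stearoyl-CoA desaturase (0.92 ± 0.04), and ANGPTL4, a lipase inhibitor (1.01 ± 0.17, against 0.10 on a second probe set).

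Of 22 intraflagellar transport genes, which build the primary cilium, 6 were higher and 2 lower with a median of 0.07, beside 1 higher and 17 lower with a median of -1.14 for HGF. The HGF + PD shares, 27.3% higher and 9.09% lower, were near the 21.8% and 13.5% of all genes. Without replicate 2 or 3 of Control or replicate 4 of HGF + PD, 3 of them were higher, and without any 1 of these, Control replicate 4 or HGF + PD replicate 2 or 3, 1 was lower. IFT57 read 11.10, 11.05, 11.07 and 11.06 in Control, 9.72 to 9.88 in HGF, and 11.53, 11.42, 11.58 and 11.50 in HGF + PD, which was the highest group (0.44 ± 0.05). Of 16 tubule transport genes 3 were lower and 0 higher (1 higher with the 8 arrays alone, and 2 to 3 lower when 1 array was left out). The share lower, 18.8%, was near the 13.5% of all genes. Among the 3 was the sodium, potassium and chloride carrier SLC12A2 (-1.37 ± 0.08, beside -1.0 with HGF). Alkaline phosphatase ALPL (-1.16 ± 0.11) and the nephron factor PAX8 (-0.56 ± 0.11) were also lower. TCF7L2, a transcription factor of WNT signalling, fell by 1.05 ± 0.13 (0.09 with HGF, and -0.06 on a dim probe set), and BTG2, an antiproliferative p53 target, by 0.96 ± 0.12 (0.88 with HGF).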
